A study of Mus musculus with 11 samples.

Results

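The YAP genes followed here are 8 members chosen by name: Ctgf, Cyr61, Ankrd1, Axl and Amotl2, which are targets of the YAP–TEAD transcription complex, Ajuba, a scaffold of the pathway, and Yap1 and Tead1, which encode the complex itself. All 8 were found once among the 31053 genes of the count matrices, and all 8 were among the 14821 genes that passed the filter on low counts. The list was set by gene name, with earlier results of these data known. They were followed in mouse liver after acetaminophen (APAP), a drug whose overdose kills the hepatocytes around the central vein.

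Spatial transcriptomes came from 11 snap-frozen liver sections on Visium slides, which capture polyadenylated RNA on a grid of barcoded spots that each cover several cells. Uninjured liver gave 3 sections, taken as 0 h and numbered 2, 3 and 4. APAP-injured liver gave 8 sections, lettered A and B for the 24 h pair and for the 36 h pair and A to D for the 4 taken at 48 h. Per the study's methods the mice were C57BL/6JCrl, 8 to 12 weeks old and male unless otherwise described, and were fasted before APAP was injected into the peritoneum. No mouse is labelled with a transgene, and the labels set the groups apart by time point only. Whether the 0 h mice were fasted is not stated in the sources used here. The study's methods state n = 1 mouse liver at each time for the spatial assay, while each time is represented by 2 or more sections. Here n therefore counts sections, each p covers the spread between sections, and mouse, slide and time cannot be told apart.

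YAP is a transcriptional coactivator held in the cytoplasm when the Hippo kinase LATS, which acts downstream of the kinase MST, phosphorylates it. When that restraint is lifted, for instance by cell spreading or damage, YAP enters the nucleus and binds TEAD proteins on DNA, which turns on genes such as Ctgf and Cyr61. In the liver the pathway is known for setting organ size and for its part in repair, with YAP abundant in bile duct cells and low in resting hepatocytes.

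TEAD proteins bind the core motif GGAATG, which reads CATTCC on the other strand, so the region before each start site was searched for these letters on both strands. Of the 8 genes, 6 were matched in the RefSeq promoter table (build GRCm38.p6), and Ctgf and Tead1 had no entry there. All 6 held at least 1 match in the 250 bases before the start, against 12.6% of the 32851 promoter windows in the table. Ankrd1 and Ajuba each held 2 matches, against 0.992% of the windows. The matches are printed here because these genes are the targets and partners of TEAD proteins followed in the results, each in a window of 30 bases read 5′ to 3′ on the gene's strand, with the motif in capitals.
Ankrd1, chr19:36120037-36120066, minus strand: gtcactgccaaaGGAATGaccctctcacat
Ankrd1, chr19:36119950-36119979, minus strand: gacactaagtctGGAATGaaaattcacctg
Cyr61, chr3:145650071-145650100, minus strand: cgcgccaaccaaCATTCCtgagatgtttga
Axl, chr7:25788949-25788978, minus strand: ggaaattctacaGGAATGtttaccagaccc
Amotl2, chr9:102717727-102717756, plus strand: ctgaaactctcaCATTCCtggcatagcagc
Ajuba, chr14:54577830-54577859, minus strand: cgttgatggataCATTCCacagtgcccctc
Ajuba, chr14:54577808-54577837, minus strand: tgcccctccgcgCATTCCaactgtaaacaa
Yap1, chr9:8004720-8004749, minus strand: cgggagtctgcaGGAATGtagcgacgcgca
A match is a description of letters and was not tested for TEAD binding. Counted from the RefSeq start, the Ankrd1 matches lay 210 and 123 bases before it and the Cyr61 match 103 bases before it. The GENCODE genes printed with the levels start further upstream for Ankrd1 and Amotl2, so their matches lie inside those gene spans.

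The sections held 1490 to 3466 passing spots and 31292663 to 67045372 UMIs (unique molecular identifiers, each a captured RNA molecule). Levels over whole sections are given as CPM, a gene's UMIs relative to the section's total, after TMM scaling. The defining hepatocyte markers were high in every section (summed level 72897 to 114754 CPM, none of the 6 genes at 0), as the labelled tissue would have. The other cells changed with time: the summed myofibroblast markers lay at 37.5 to 45.9 CPM at 0 h, 70.4 to 99.4 at 24 h, 124 to 384 at 36 h and 484 to 1185 at 48 h. Neutrophil markers lay at 1.98 to 7.86 CPM at 0 h and 38.4 to 136 at 24 h. Cholangiocyte markers (13.7 to 24.4 CPM at 24 h, 5.26 to 6.98 at 0 h), smooth muscle markers (2.65 to 6.54 and 1.10 to 1.16) and phagocyte markers (553 to 595 and 409 to 435) were also above their uninjured range at 24 h. Stellate markers (152 to 173 and 282 to 322), endothelial markers (210 to 228 and 247 to 283) and hepatocyte markers (82689 to 95588 and 109754 to 114754) were below theirs. In such bulk sums, fewer cells of a type and less RNA per cell cannot be told apart, and the part of these cells in the results was not tested.

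The secreted and nuclear targets were highest at 24 h. Ctgf, Cyr61 and Ankrd1 rose together with Ajuba and Tead1 at that time. All 5 were called lower at 48 h than at 24 h in the TMM-scaled fit of all 11 sections. Of these, all but Ctgf were still called above uninjured liver at 48 h. In that fit Axl was instead called against uninjured liver only at 48 h, though under total-count scaling it was also called at 36 h. Amotl2 and Yap1 were not called against uninjured liver at any time in the TMM-scaled fit of all 11 sections.

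Ctgf (ENSMUSG00000019997, also called Ccn2; chr10:24595442-24598683, plus strand) encodes a secreted matricellular protein of the CCN family that acts on matrix deposition. Its level was 7.29, 12.1 and 11.9 CPM in the 0 h sections, 51.8 and 48.1 CPM at 24 h, 4.32 and 33.0 CPM at 36 h, and 15.8, 9.52, 16.7 and 9.51 CPM at 48 h. Both 24 h sections lay above every other section, and the 36 h pair lay on either side of the 0 h range. At 24 h Ctgf was higher than at 0 h by 2.26 on the log2 scale (SE 0.62, adjusted p = 0.0155, edgeR quasi-likelihood test with Benjamini-Hochberg adjustment over all genes). Without 0 h section 2, 24 h A or 24 h B the log2 fold change stayed at 2.02, 2.21 and 2.31, but the SE rose to 0.701, 0.767 and 0.763 and it was not called (adjusted p = 0.0538, 0.0611 and 0.0542). The gene overlaps Gm15270 on the opposite strand, and whether strand was used in counting is not given in the sources used here.

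Cyr61 (ENSMUSG00000028195, also called Ccn1; chr3:145646976-145649981, minus strand) is the other CCN protein among the targets and acts on cell adhesion and senescence. It stood at 6.38, 6.13 and 3.36 CPM at 0 h, 25.3 and 23.4 at 24 h, 8.03 and 9.99 at 36 h, then 6.73, 14.2, 13.5 and 13.3 at 48 h. Again the 24 h sections were above all others, and every section after injury was above every uninjured one, section 48 h A only narrowly. Its log2 fold change against 0 h was 2.19 at 24 h (SE 0.32, adjusted p = 0.000552), 0.76 at 36 h (adjusted p = 0.106, not called) and 1.16 at 48 h (SE 0.28, adjusted p = 0.00737). The 36 h value was called under total-count scaling (1.19, adjusted p = 0.0129) and without 48 h A (0.76, adjusted p = 0.0341).

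Ankrd1 (ENSMUSG00000024803; chr19:36111961-36120099, minus strand), a nuclear ankyrin repeat protein first known from heart muscle, went from nearly absent to readily detected. The 0 h sections held 10, 13 and 9 UMIs in all, which is 0.22, 0.24 and 0.25 CPM. The 24 h sections held 925 and 257 UMIs, or 19.9 and 8.20 CPM, with section A above section B by more than the spread among the uninjured sections. At 36 h the level was 0.52 and 1.40 CPM, and at 48 h it was 1.46, 2.36, 1.08 and 1.57 CPM. No section after injury overlapped the uninjured range. Against 0 h the log2 fold change was 5.88 at 24 h (SE 0.52, adjusted p = 4.14e-05), 2.01 at 36 h (SE 0.58, adjusted p = 0.0259) and 2.75 at 48 h (SE 0.48, adjusted p = 0.00122). Leaving out 36 h B ended the 36 h call (1.13, adjusted p = 0.304), and without 0 h section 2, 3 or 4 it was not called either (adjusted p = 0.0695, 0.0668 and 0.0556), though the value stayed between 1.94 and 2.03. At 24 h this placed Ankrd1 at rank 99 of 14821 genes ordered from the highest fold change.

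Axl (ENSMUSG00000002602; chr7:25757273-25788705, minus strand) encodes a receptor tyrosine kinase for Gas6 that phagocytes use in clearing dead cells and that mesenchymal cells also carry. Its level was 19.99, 23.7 and 24.0 CPM at 0 h, 25.7 and 27.1 at 24 h, 24.0 and 51.6 at 36 h, and 35.3, 34.6, 50.8 and 46.6 at 48 h. All 4 sections at 48 h were above the 0 h and 24 h sections, and at 36 h only section B was. Axl was higher at 48 h than at 0 h by 0.89 on the log2 scale (SE 0.24, adjusted p = 0.0114) and its values of 0.23 at 24 h and 0.74 at 36 h were not called (adjusted p = 0.539 and 0.0634). The 36 h value was called under total-count scaling (1.17, adjusted p = 0.00457) and by DESeq2 (0.72, adjusted p = 0.045). Without 36 h A it was 1.19. The phagocyte markers, summed, lay at 409 to 435 CPM at 0 h and 722 to 1327 CPM at 48 h.

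Amotl2 (ENSMUSG00000032531; chr9:102716672-102733418, plus strand), an angiomotin that holds YAP at cell junctions and is itself a target, had levels of 18.05, 16.1 and 16.9 CPM at 0 h and 21.5 and 20.4 CPM at 24 h. At 36 h it stood at 19.7 and 11.6 CPM, and at 48 h at 13.3, 14.7, 14.7 and 18.05 CPM. Apart from the 24 h pair, which lay above the uninjured range, the times overlapped or straddled one another. Against 0 h its log2 fold change was 0.30 at 24 h, -0.12 at 36 h and -0.16 at 48 h, with adjusted p of 0.24, 0.667 and 0.435. It was called at 24 h under total-count scaling (0.63, adjusted p = 0.0239) and at 36 h without 36 h A (-0.56, adjusted p = 0.0295).

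Ajuba (ENSMUSG00000022178; chr14:54567472-54577558, minus strand) encodes a LIM protein that restrains LATS kinases at junctions. It lay at 6.27, 5.52 and 6.81 CPM at 0 h, 16.4 and 14.9 at 24 h, 7.62 and 6.71 at 36 h, then 8.93, 7.89, 9.20 and 9.69 at 48 h. The uninjured and 36 h sections overlapped, whereas the 24 h and 48 h sections were above them and apart from each other. Ajuba was higher than at 0 h by 1.34 on the log2 scale at 24 h (SE 0.13, adjusted p = 5.95e-05) and by 0.53 at 48 h (SE 0.11, adjusted p = 0.00357), and its value at 36 h was 0.21 (adjusted p = 0.262). Under total-count scaling the 36 h value was 0.65 and was called (adjusted p = 0.00328).

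Yap1 (ENSMUSG00000053110; chr9:7931999-8004596, minus strand), the coactivator itself, was not called at any time in the fit of all 11 sections. It stood at 23.4, 24.1 and 22.6 CPM at 0 h, 20.2 and 19.7 at 24 h, 19.8 and 19.8 at 36 h, and 21.3, 22.8, 18.5 and 17.7 at 48 h. Every injured section but 48 h B lay below the uninjured range. The log2 fold changes were -0.23, -0.24 and -0.22, with adjusted p of 0.136, 0.142 and 0.0858. Their sign turned to 0.10, 0.20 and 0.31 under total-count scaling, which moves the median of all genes by 0.33, 0.44 and 0.53. Yap1 was called lower at 24 h with only the 2 groups compared (-0.27, adjusted p = 0.0362) and at 48 h without 48 h B (-0.29, adjusted p = 0.0344), and higher at 48 h under total-count scaling (adjusted p = 0.0194). Protein level, phosphorylation and position of YAP in the cell were not measured.

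Tead1 (ENSMUSG00000055320; chr7:112679318-112906807, plus strand), a DNA-binding partner of YAP, rose at all 3 times. Its level was 4.31, 5.28 and 5.56 CPM at 0 h, 12.1 and 13.7 at 24 h, 8.20 and 10.8 at 36 h, and 9.06, 9.04, 8.92 and 7.86 at 48 h. No injured section overlapped the uninjured ones, and the 24 h pair was highest. The log2 fold change against 0 h was 1.35 at 24 h (SE 0.15, adjusted p = 0.000116), 0.91 at 36 h (SE 0.15, adjusted p = 0.0025) and 0.79 at 48 h (SE 0.13, adjusted p = 0.000886).

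**Figure D1:**
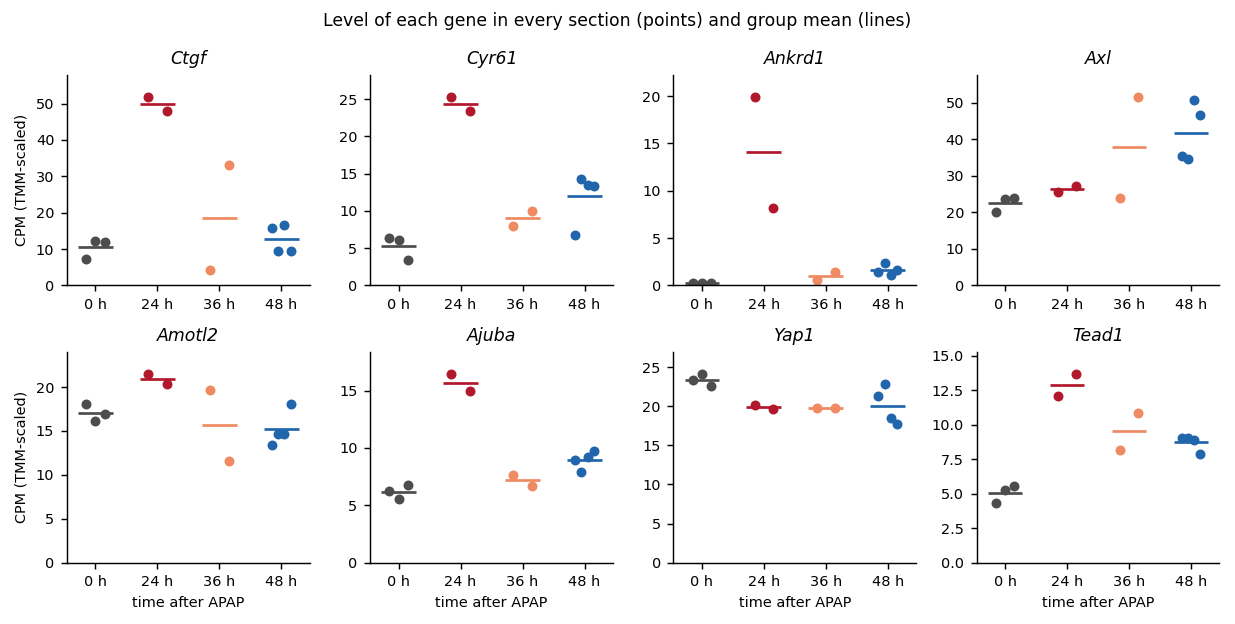
Each panel plots 1 gene in CPM (TMM-scaled, vertical axis) in every section (points) by hours after APAP, with the group mean as a line. Ctgf, Cyr61, Ankrd1, Ajuba and Tead1 have both 24 h sections above all others, Axl is highest among 36 h B and the 48 h sections, and the 36 h sections of Ctgf lie at 4.32 and 33.0 CPM.

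Counted together, 5 of the 8 genes were called at 24 h against 0 h, where 41.7% of all genes tested were called. At 36 h 2 of 8 were called, Ankrd1 and Tead1, against 29.2% of all genes. At 48 h 5 of 8 were called (Cyr61, Ankrd1, Axl, Ajuba and Tead1), against 44.2%. Every one of these calls was for a higher level. With the background this high, the shares of the 8 called are near it, and the size of the changes is what the values above describe. The 3 comparisons share the 0 h sections.

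**Figure D2:**
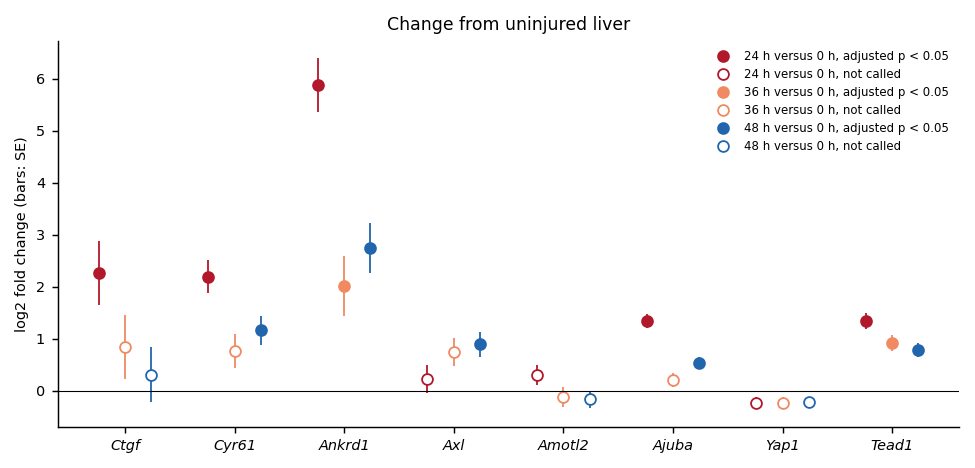
Log2 fold change of each gene against the 0 h sections at 24, 36 and 48 h, with SE as bars, and filled points for an adjusted p under 0.05. Ankrd1 has the tallest points (5.88, 2.01 and 2.75), and the points of Yap1 (-0.23, -0.24 and -0.22) are all open.

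From 24 h to 36 h, 3 genes fell, against 15.6% of all genes called: Ankrd1 by 3.87, Cyr61 by 1.43 and Ajuba by 1.13 on the log2 scale (adjusted p = 0.00402, 0.0268 and 0.00322). From 24 h to 48 h, 5 fell, against 34.1%: Ankrd1 by 3.13, Ctgf by 1.95, Cyr61 by 1.03, Ajuba by 0.81 and Tead1 by 0.56 (adjusted p = 0.000532, 0.0242, 0.0216, 0.00107 and 0.0124). Without 24 h A the second count was 3, and without 24 h B it was 2. The fall of Cyr61 to 36 h was not called without any one of the 4 sections compared (adjusted p = 0.11 and 0.0735 without 24 h A and B, 0.0845 and 0.081 without 36 h A and B), while its value stayed between -1.29 and -1.56. With only the 2 groups compared, none of the 3 falls to 36 h was called (-3.85, -1.42 and -1.12, adjusted p = 0.133 for each). Nor was any of them called with the section letter as a block (-3.91, -1.46 and -1.13), where 1 fall to 48 h was called. Total-count scaling ended the calls of a fall to 48 h for Cyr61 (-0.83, adjusted p = 0.0513) and Tead1 (-0.36, adjusted p = 0.0641). Fitting all genes, with no filter on low counts, ended that of Ctgf (-1.91, adjusted p = 0.068). The fall of Ctgf to 48 h was not called when either 24 h section was left out (adjusted p = 0.105 for A and 0.0836 for B), nor when section B or D of the 48 h group was (adjusted p = 0.0551 and 0.0515). Between 36 h and 48 h none of the 8 was called by edgeR, against 3.05% of all genes, and 1 (Ajuba) had an unadjusted p under 0.05. DESeq2 called 0 there as well.

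The 36 h sections disagreed with each other. Section B was above section A for Ctgf (33.0 against 4.32 CPM) and Axl (51.6 against 24.0 CPM) and below it for Amotl2 (11.6 against 19.7 CPM), while Yap1 was at 19.8 CPM in both. Markers of other cells were also higher in B: myofibroblast markers summed to 384 CPM in B and 124 in A, neutrophil markers to 60.3 and 20.9, phagocyte markers to 623 and 448, and endothelial markers to 325 and 202. Mesothelial markers (19.1 in B and 1.65 in A) and hepatocyte markers (99075 and 81806) were higher in B as well, whereas cell cycle markers were not (29.2 and 30.8). Their part in the difference was not tested. Without 36 h A, 5 of the 8 genes were called at 36 h against 0 h, and without 36 h B the log2 fold change of Ctgf was -1.27 rather than 0.84. The count was 1 without 36 h B or without any single 0 h section.

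The wider pathway was read from lists, which were chosen with earlier results of these data known. Every list but that of the immediate early genes holds some of the 8 genes. The shares and medians include them and were not computed without them, and the 48 h median of the target list is the value of Axl itself. A widely used set of 22 YAP/TAZ targets holds 5 of the 8 genes, and 21 of it were tested. At 24 h 10 were higher and 1 lower, 52.4% of the list beside 41.7% of all genes, with a median log2 fold change of 0.56 beside 0.05 over all genes. Gadd45a, a stress-induced growth arrest gene (2.38, adjusted p = 0.00215), and Fjx1 (2.23, adjusted p = 0.0174) rose with Ankrd1 and Ctgf, while Igfbp3, an IGF-binding protein, fell by 3.42 (adjusted p = 0.000528). At 36 h 5 were higher and none lower, 23.8% beside 29.2% (median 0.72). At 48 h 11 were higher and none lower, 52.4% beside 44.2% (median 0.89), led by Myof, a membrane repair protein (3.30, adjusted p = 2.6e-05), Ankrd1, Ccdc80, a matrix protein (1.82, adjusted p = 0.00275), and Tgfb2, a TGFβ ligand (1.36, adjusted p = 0.0134). Against 24 h, 4 were then higher and 6 lower.

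Among 25 Hippo kinases and scaffolds, all tested, 6 were higher and 2 lower at 24 h (median 0.16). The shares called at the 3 times, 32%, 20% and 36% in order, were each below those of all genes. Besides Ajuba, the phosphatase Ptpn14 (1.36, adjusted p = 0.00166), the kinase Map4k4 (1.11, adjusted p = 0.0153) and the LIM protein Wtip (0.67, adjusted p = 0.046) rose, and the cadherin Fat4 (-2.13, adjusted p = 0.0216) and the kinase Taok3 (-0.69, adjusted p = 0.0134) fell. At 36 h 5 were higher and none lower, and at 48 h 7 were higher and 2 lower, the latter being the LATS cofactor Mob1b (-0.53, adjusted p = 0.00373) and the kinase Lats1 (-0.38, adjusted p = 0.00802).

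Of the 9 transcription effectors, 8 were tested, with 37.5%, 50% and 62.5% called at 24, 36 and 48 h beside 41.7%, 29.2% and 44.2% of all genes. At 24 h Tead1 and Wwtr1, which encodes the YAP paralogue TAZ (0.62, adjusted p = 0.00704), rose, and Vgll4, a TEAD cofactor that competes with YAP, fell (-1.70, adjusted p = 0.00609). At 36 h 3 were higher and 1 lower. At 48 h 4 were higher and 1 lower, with Vgll3 (1.47, adjusted p = 0.0323) and Tead2 (1.11, adjusted p = 0.00299) up and Vgll4 at -2.50 (adjusted p = 0.000173). In the CCN family of 5 genes, 60% were called at 24 h and 40% at 48 h. Wisp1 (1.125, adjusted p = 0.00209) rose with Ctgf and Cyr61 at 24 h, none was called at 36 h, and Wisp2 (3.68, adjusted p = 0.000674) rose with Cyr61 at 48 h. Of 11 immediate early genes, whose products are early transcription factors and stress regulators, 8 were higher and none lower at 24 h (median 2.04), led by Egr2 (4.91, adjusted p = 0.000114). At 36 h 5 were higher and none lower (median 0.60), and at 48 h 7 were higher and 2, Jund (-0.73, adjusted p = 0.00812) and Srf (-0.38, adjusted p = 0.0217), were lower (median 1.36). The shares called were 72.7%, 45.5% and 81.8%.

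For each gene the profiles most alike over the 11 sections were sought among all genes tested, by Pearson's r of log2(CPM + 1), given as a description since sections of a time point share it. As the highest of all genes tested, these r values are high by selection. Tead1 was closest to Ccdc120 (r = 0.991) and Tnfrsf12a (0.986), Axl to Entpd1 (0.990) and Flrt2 (0.982), and Ankrd1 to Rpp38 (0.983) and Prrg4 (0.978). Flrt2 (0.22 to 1.41 CPM) and Prrg4 (0.022 to 0.86 CPM) were near the floor. Ajuba was closest to Hmces (0.976), Ctgf to Rpl41 (0.963), Yap1 to Ublcp1 (0.954), Amotl2 to Gm15638 (0.944) and Cyr61 to Plk2 (0.933).

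Where the genes lay in the tissue was read from classes of spots within each section, set by marker lists that hold none of the 8. Levels by spot class are given as unscaled CPM, a gene's UMIs relative to those spots' own total, with no TMM scaling. Fold changes between classes come from an edgeR fit on sums per section and class, with TMM scaling and the section as a block.

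In uninjured liver, Ctgf, Axl, Ajuba and Tead1 were lower in pericentral than in periportal spots (the 25% of spots at either end of a central-to-portal score, 3 sections). Of the 7 genes that could be tested these 4 were called, against 24.1% of all genes. Ctgf stood at 4.90, 8.15 and 8.19 unscaled CPM in pericentral spots and 7.84, 12.8 and 11.7 in periportal spots, lower in 3 of 3 sections (log2 fold change -0.68, SE 0.10, adjusted p = 7.88e-06). The log2 fold changes of Tead1, Ajuba and Axl were -0.73, -0.69 and -0.42 (adjusted p = 0.000646, 0.000246 and 0.000157). Cyr61 was at 0.32 (adjusted p = 0.102) and Yap1 at -0.09 (adjusted p = 0.457), and Ankrd1 was below the count filter. Periportal spots also held more marker RNA of some other cells, with 2.66 to 3.57 times the smooth muscle markers and 3.09 to 5.21 times the cholangiocyte markers of pericentral spots. Myofibroblast markers were at 0.969 to 1.17 times. The smooth muscle markers were near the floor, at 1.10 to 1.16 CPM over whole uninjured sections. The part of these cells was not tested.

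Ctgf and Cyr61 were already uneven before injury in the 10% of spots with the most myofibroblast marker RNA. There Ctgf lay at 12.3, 28.9 and 22.2 unscaled CPM, 2.39 to 3.43 times its level in the other spots. Cyr61 lay 2.31 to 2.95 times higher. The same spots held 3.41 to 4.84 times the smooth muscle markers of the other spots, on levels near the floor, and the part of these cells was not tested. Ctgf was also higher in the spots with the most endothelial (1.67 to 2.41 times) and cholangiocyte marker RNA (1.52 to 2.39 times). Axl was 2.11 to 2.24 times higher in the 10% of spots with the most mononuclear phagocyte marker RNA, at 30.4, 37.7 and 38.0 unscaled CPM.

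At 24 h Ankrd1 was concentrated in the phagocyte-high 10% of spots. It stood at 87.0 unscaled CPM there in section A and 34.2 in section B, against 13.5 and 5.65 in the other spots. These spots held 39.0% and 35.8% of all Ankrd1 UMIs but 9.02% and 8.44% of all UMIs. Ctgf was 5.07 and 3.04 times higher there (194 and 123 unscaled CPM), Axl 3.18 and 3.58 times and Cyr61 3.04 and 2.70 times. Yap1 was 1.27 and 0.896 times its level elsewhere, on either side of equality. Neutrophil markers were 4.23 to 6.72 times higher in the same spots. The myofibroblast-high 10% of spots gave 4.23 and 3.88 for Ankrd1 and 3.87 and 3.12 for Ctgf. Ankrd1 was also 3.09 to 3.52 times higher in the endothelia-high 10%. In the 10% highest for the study's human migratory hepatocyte list it was 4.19 to 4.35 times higher. In phagocyte-high spots Ankrd1 was 3.18 to 6.87 times higher at 36 h, on 22 UMIs there, and 1.26 to 2.53 times at 48 h.

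**Figure D3:**
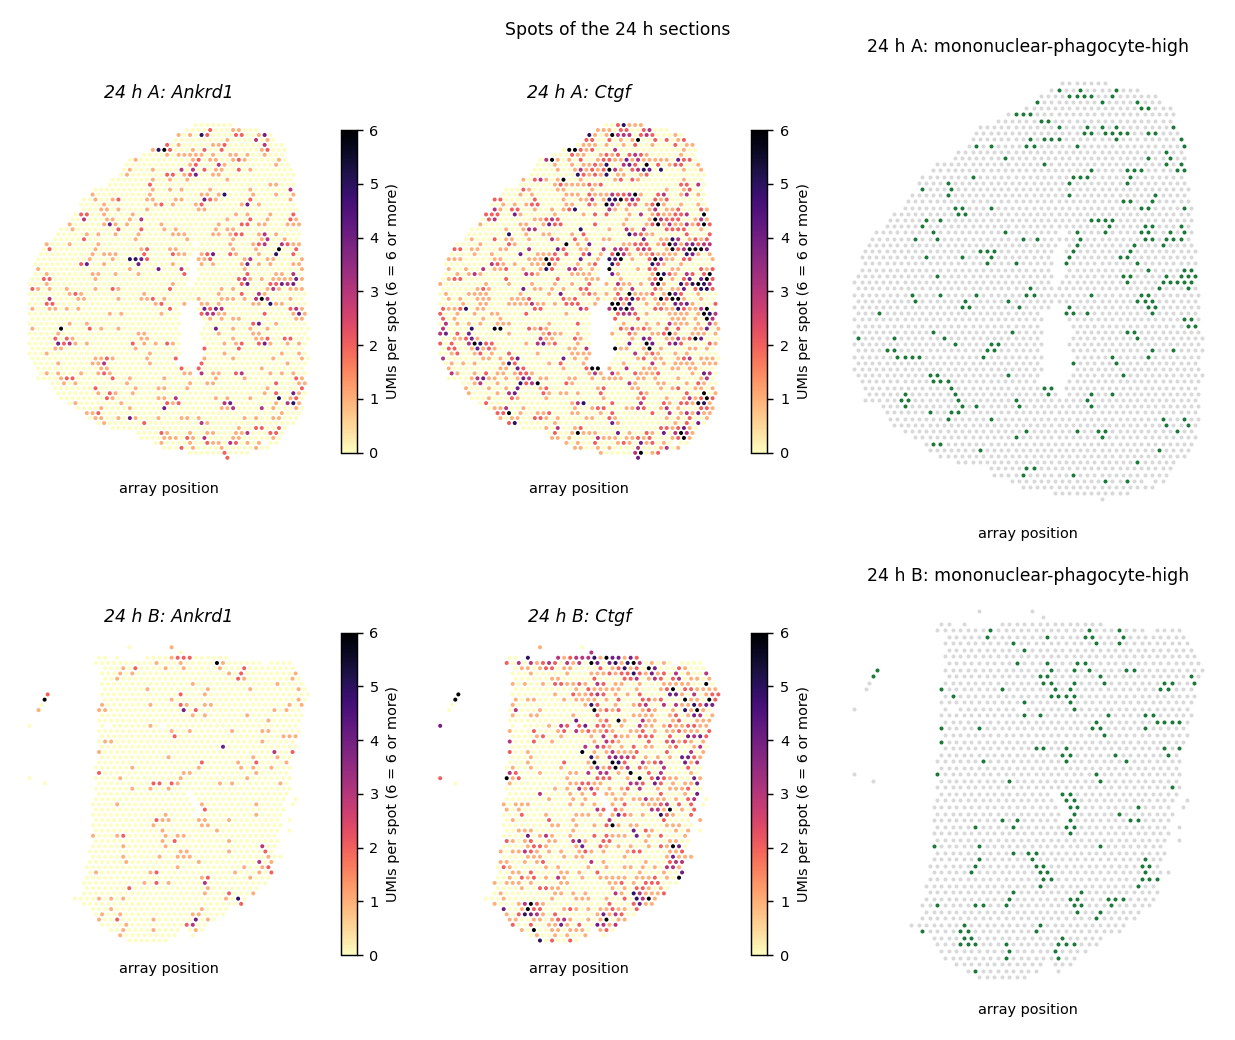
Spots of 24 h sections A (top) and B (bottom) at their array positions, coloured by UMIs of Ankrd1 (left) and Ctgf (middle), and with the phagocyte-high 10% of spots in green (right). Ankrd1 was held by 590 spots in A and 190 in B, and 39.0% and 35.8% of its UMIs lay in the green spots.

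Over the 8 injured sections together, 6 of the 8 genes were called between phagocyte-high and other spots, against 66.0% of all genes, so the count is near the background. Axl (1.38, adjusted p = 1.74e-10), Ankrd1 (1.56, adjusted p = 0.000502), Ctgf (0.92, adjusted p = 0.00424), Cyr61 (0.83, adjusted p = 1.15e-05) and Tead1 (0.44, adjusted p = 0.000158) were higher. Yap1 was lower by TMM-scaled values (-0.21, adjusted p = 0.0302) and higher under total-count scaling (0.15). Myofibroblast-high spots also had 6 called, against 62.9%, with Ankrd1 at 1.23, Axl at 1.26, Ctgf at 0.97 and Cyr61 at 0.92, and with Yap1 at -0.19 that turned to 0.16 under total-count scaling. Endothelia-high spots had 5 called, against 56.0%, and so had spots high in the study's migratory hepatocyte list of 21 matched genes, against 62.5%, where Ctgf was at 0.96 and Ankrd1 at 1.41. That list was derived from human hepatocytes and matched to mouse genes by symbol. The paper reports Anxa2, which is in the list, in mouse leukocytes, mesenchyme and endothelia as well. Which cells of these spots held the list's RNA was not tested. Cholangiocyte-high spots had 1 called, Ctgf at 0.23 (adjusted p = 0.0194), against 1.36%, and had 0 without 24 h A, 48 h C or 48 h D and 2 without 24 h B. The classes were not made exclusive, so a spot can belong to several of them.

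**Figure D4:**
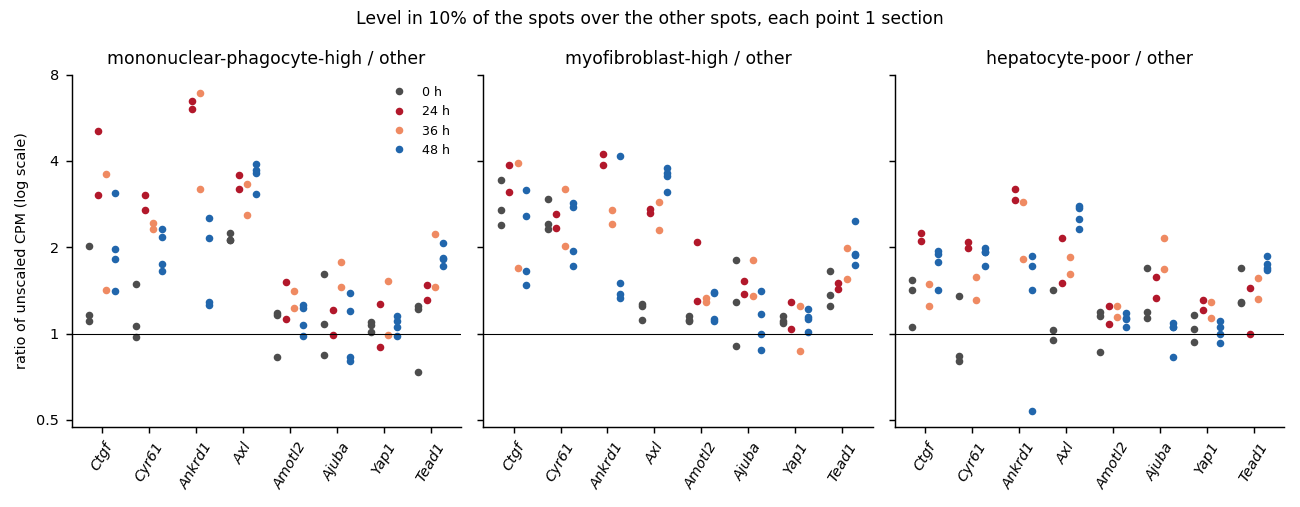
Ratio of each gene's unscaled CPM in 10% of the spots to the other spots (vertical axis, log scale), 1 point per section, coloured by time, with the uninjured points of Ankrd1 left out because its UMIs are too few there. In the phagocyte-high panel the 24 h points of Ankrd1 lie at 6.05 and 6.46, and the Yap1 points lie around 1.

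Spots holding Ankrd1 at 24 h tended to touch one another and to hold the other targets. Around a spot with an Ankrd1 UMI, the touching spots had 1.57 (A) and 1.73 (B) times the section's Ankrd1 level. The same ratio was 1.30 and 1.17 for Ctgf, 1.18 and 1.29 for Cyr61, and 0.998 and 0.958 for Yap1. In the spots holding Ankrd1, Ctgf was at 2.11 and 1.99 times, Cyr61 at 1.73 and 1.75 times, Axl at 1.54 and 1.68 times and Yap1 at 1.17 and 1.04 times the section's level. These ratios are descriptions of 2 sections, and deeper spots are more likely to hold a given UMI.

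The 10% of spots poorest in hepatocyte marker RNA were taken in each section after the data had been examined, to compare the same share of tissue over time. Summed hepatocyte markers there were 1.03 to 1.05 times those of the other spots at 0 h, 0.740 to 0.767 times at 24 h, 0.794 to 0.870 times at 36 h and 0.504 to 0.721 times at 48 h. At 0 h the class was thus not poor in their sum, and the times compare unlike classes. At 0 h none of the 8 genes differed between these hepatocyte-poor spots and the rest by edgeR, against 0.756% of all genes, with 3 (Ctgf, Ajuba and Tead1) at an unadjusted p under 0.05. At 24 h 4 were higher, against 15.1%. Ankrd1 stood at 53.6 and 19.9 unscaled CPM in the poor spots and 16.8 and 6.82 elsewhere (log2 fold change 1.38, SE 0.16, adjusted p = 6.78e-07). Ctgf stood at 106 and 90.1 against 47.1 and 42.8 (0.87, SE 0.10, adjusted p = 1.45e-06), Cyr61 had a log2 fold change of 0.78 (adjusted p = 2.45e-05) and Axl of 0.59 (adjusted p = 0.0016), or 0.34 (adjusted p = 0.288) without 24 h B. The poor spots of both 24 h sections exceeded the rest for these 4 genes. In the same spots phagocyte markers were 1.61 to 2.15 times, neutrophil markers 2.24 to 3.24 times and myofibroblast markers 1.82 to 2.10 times their level elsewhere, and their part was not tested.

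At 36 h Axl (0.59, adjusted p = 0.00165) and Ajuba (0.71, adjusted p = 0.0148) were higher in hepatocyte-poor spots, 2 of 8 against 9.45%, and neither was called without 36 h B. At 48 h 7 were called, against 54.9%: Axl (0.998), Cyr61 (0.54), Tead1 (0.42) and Ctgf (0.40) were higher, and Ajuba (-0.38), Yap1 (-0.35) and Amotl2 (-0.21) were lower by TMM-scaled values, but under total-count scaling these 3 were at -0.0037, 0.028 and 0.17. Ajuba was also not called without 48 h D (-0.25, adjusted p = 0.0859). The change of these contrasts with time was tested directly. From 0 h to 24 h only Cyr61 was called, with a contrast larger by 0.77 (SE 0.20, adjusted p = 0.0254), 1 of 8 against 4.64% of all genes. The count was 0 without 0 h section 2 or 4 or without 24 h A or B, and 2 without 0 h section 3 or 48 h C. From 24 h to 48 h the contrast fell by 1.23 for Ankrd1 (adjusted p = 0.00481), by 0.65 for Ajuba (adjusted p = 0.0213) and by 0.48 for Ctgf (adjusted p = 0.0296), 3 of 8 against 7.82%. Without 24 h A the count was 0, with Ankrd1 at -1.13 (adjusted p = 0.137). Neither Ctgf nor Ajuba was called under total-count scaling (-0.34 and -0.52, adjusted p = 0.0957 and 0.0674) or without 24 h B (adjusted p = 0.0845 and 0.165). Ctgf was also not called without any single 0 h section or without 48 h A or 48 h C (-0.30 and adjusted p = 0.113 for the last), nor Ajuba without 48 h D or with the lowest 5% of spots (adjusted p = 0.0673 and 0.114).

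Levels were also read outwards from the spots lowest in hepatocyte markers. These hepatocyte-low spots, whose hepatocyte score lay below the 1st percentile of the uninjured spots, numbered 22 to 139 per section at 48 h and 4 to 13 at 24 h and 36 h. They were 1.48% to 5.29% of spots at 48 h, and 0.303% to 0.516% at 24 h and 0.197% to 0.558% at 36 h, which is below the 0.730% to 1.38% of uninjured sections, so the class does not measure injured area. Because of these numbers, only the 48 h sections entered the comparison of low spots with far spots, which lay at least 3 steps away on the grid. Axl stood at 129, 120, 155 and 151 unscaled CPM in the low spots of sections A to D and at 33.6, 35.5, 46.4 and 45.2 in far spots. All 4 sections were 3.35 to 3.85 times higher in low spots (log2 fold change 1.28, SE 0.09, adjusted p = 2.57e-34). Cyr61 was higher in 4 of 4 sections (16.4, 27.0, 30.3 and 33.3 against 6.61, 15.7, 14.0 and 13.6, log2 fold change 0.62, adjusted p = 7.43e-05), as were Tead1 (0.59, adjusted p = 0.00101) and Ctgf (0.45, adjusted p = 0.0262). The value of Ctgf was 0.27 (adjusted p = 0.199) without 48 h A and 0.28 (adjusted p = 0.102) without 48 h B.

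In all 7 of the 8 genes were called there, against 55.5% of all genes. Ajuba (-0.72), Yap1 (-0.57) and Amotl2 (-0.46) were the lower 3 by TMM-scaled values (adjusted p = 0.000992, 0.000217 and 0.0067), but under total-count scaling their values were -0.20, -0.04 and 0.06 and none was called. Unscaled levels did not separate for these genes: Yap1 was at 25.4, 33.7, 18.8 and 16.2 unscaled CPM in low spots and 24.7, 25.8, 21.1 and 19.99 in far spots. Ankrd1 rested on 2 to 5 UMIs per section in low spots and was not called (0.05, adjusted p = 0.931), a difference not detectable at this depth. Low spots held 4.38 to 5.84 times the phagocyte markers, 4.87 to 6.01 times the myofibroblast markers and 0.421 to 0.5002 times the hepatocyte markers of far spots, and their part was not tested.

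In ring 1, the spots touching a low spot, 4 genes were higher than in far spots, against 42.3% of all genes (7 sections): Axl (0.60, adjusted p = 1.73e-10), Ankrd1 (0.50, adjusted p = 0.0132), Ctgf (0.36, adjusted p = 0.000334) and Cyr61 (0.30, adjusted p = 0.00538). At 36 h Cyr61 was at 0.438 and 0.916 times its far level, on 8 UMIs in all. With a hepatocyte list that lacks Cyp2e1, neither Ctgf (0.27, adjusted p = 0.225) nor Cyr61 (0.09, adjusted p = 0.769) was called. At 48 h the Axl level in ring 1 was 61.2, 75.0, 77.5 and 95.2 unscaled CPM, between the low and the far spots in every section. Ankrd1 in ring 1 was 3.43, 3.02, 1.84 and 2.38 unscaled CPM against 1.57, 2.63, 1.07 and 1.76 in far spots, and its log2 fold change was not called without 24 h A (0.48, adjusted p = 0.0692) or 48 h A (0.41, adjusted p = 0.0888) and turned to -1.56 (adjusted p = 0.148) with the list lacking Cyp2e1. That list left 2 to 32 low spots per section at 48 h and at most 1 at 24 h and 36 h, so the extent of the low class depends on this pericentral enzyme gene.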

How the data were processed

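Visium libraries of 11 mouse liver sections were analysed. Each deposited matrix holds raw counts of UMIs, not normalised, over 31053 genes and all spot barcodes, made by the authors with Space Ranger 1.0.0 (build mm10), and the submitters' processing notes also name Seurat 4.1.1. All 11 libraries share the 4992 barcodes of the array. Following the study's methods, spots under the authors' tissue mask were kept at 800 or more genes and 20% or less mitochondrial UMIs. UMI counts were summed per section, since spots are not replicates, and tested with edgeR 4.0.16 in R 4.3.3 (filterByExpr by time, TMM, robust quasi-likelihood fit of all 11 sections, two-sided, Benjamini-Hochberg over all genes tested, called at an adjusted p under 0.05). Depth was 31292663 to 67045372 UMIs per section.

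For spot classes, each spot was scored on marker lists, after thinning to 2000 UMIs for the hepatocyte and zonation scores and on all its UMIs for the classes of the highest 10%. Counts were then summed per section and class (at least 20 spots) and fitted with the section as a block. The central, portal and migratory lists are the study's own, so those classes are not independent evidence. The members and lists were chosen with earlier results of these data known, and the hepatocyte-poor classes were added after the data had been seen. The genes named are the 8 members, at most the 4 largest called changes each way per pathway list and comparison, and the 3 closest profiles per member, of which 1 or 2 are given. Only the fit of 24 h against 0 h and the myofibroblast-high fit were run on simulated data, and the other fits were not. Alternatives were total-count scaling, DESeq2 1.42.0, no filter on low counts, all spots under the mask, only the groups compared, a replicate block, other class thresholds and leaving out each section. RefSeq promoters and GENCODE vM21 positions (GRCm38) were matched by symbol or gene ID. Images were not used here.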

Additional observations from a re-analysis of the deposited data

Results flagged for a closer look

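In groups of 4 sections, 6 of 72 values tested had a section far from the rest (a gap to the nearest section over the range above Dixon's critical value), where chance gives about 1 in 20. They were the level of Cyr61 at 48 h (0.877, section A at 6.73 CPM against 13.3 to 14.2), the level of Tead1 at 48 h (0.884, section D at 7.86 CPM against 8.92 to 9.06), and the ratio of Axl in hepatocyte-low to far spots at 48 h (0.957, section A at 3.85). The other 3 were the 48 h ratios of Ajuba in hepatocyte-poor spots (0.851), of Ankrd1 in myofibroblast-high spots (0.94) and of Ajuba in cholangiocyte-high spots (0.896).

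The difference between hepatocyte-poor and other spots changed with time for 4 values by a test of the change itself. The contrast of Cyr61 was larger by 0.77 on the log2 scale at 24 h than at 0 h, against 4.64% of all genes called. At 48 h against 24 h the contrast changed by -0.48 for Ctgf, -1.23 for Ankrd1 and -0.65 for Ajuba, against 7.82%. As given in the results, these calls depended on single sections. The class at 0 h was also not poor in summed hepatocyte markers, so the change from 0 h compares unlike classes.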

How the results depend on the processing

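Of 1187 values of single genes recomputed under an alternative, 1066 kept their direction and their side of the threshold, 97 were no longer called, 11 became called and 13 reversed. Of 278 recomputed counts of the 8 genes, 242 stayed within 1.5 times and 36 did not. The cause of a change was not tested unless the alternative itself shows it.

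Under total-count scaling, which takes the library size as given, the counts became 5 at 36 h against 0 h, 4 for hepatocyte-low and 7 for ring 1 against far spots, 8 for migratory-high spots, and 4 at 36 h, 4 at 48 h and 3 for 24 h minus 0 h in hepatocyte-poor spots. It reversed Yap1 to 0.10, 0.20 and 0.31 at 24, 36 and 48 h against 0 h, to 0.16 in myofibroblast-high, 0.15 in phagocyte-high and 0.028 in hepatocyte-poor spots at 48 h. It reversed Amotl2 to 0.32 and 0.36 at 36 and 48 h, to 0.063 in hepatocyte-low spots and to 0.17 in hepatocyte-poor spots at 48 h. At 36 h against 0 h, Ctgf and Amotl2 reversed to -1.27 and 0.21 without 36 h B and were 1.66 and -0.56 without 36 h A. With a hepatocyte list lacking Cyp2e1, ring 1 had 2 called (Ankrd1 reversed to -1.56), hepatocyte-poor spots had 1 at 0 h, and 48 h minus 24 h had 5. With only the 2 groups compared, 36 h against 24 h had 0. Cholangiocyte-high spots had 3 with the highest 5% and 0 with scores at 2000 UMIs. With the lowest 5% of spots, hepatocyte-poor spots had 1 at 36 h and 2 for 24 h minus 0 h.

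Leaving out each section in turn gave 4 to 5 calls at 24 h, 1 to 5 at 36 h and 5 to 6 at 48 h against 0 h, 2 to 4 for 36 h and 2 to 7 for 48 h against 24 h, and 0 to 0 for 48 h against 36 h. It gave 5 to 7 for hepatocyte-low spots, 3 to 4 for ring 1, 4 to 4 for pericentral spots, 5 to 6 for each of myofibroblast-, phagocyte- and endothelia-high spots, 0 to 2 for cholangiocyte-high and 5 to 5 for migratory-high spots. For hepatocyte-poor spots it gave 0 to 0 at 0 h, 3 to 4 at 24 h, 0 to 2 at 36 h, 5 to 7 at 48 h, 0 to 2 for 24 h minus 0 h and 0 to 4 for 48 h minus 24 h. A group left with 1 section is assumed to vary like the others.

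Whether the section letters pair the samples is not stated in the sources used here. Deviations from the group means of the 6 same-letter pairs correlated at -0.27 to 0.46 (median -0.076), and of the 14 other pairs at -0.49 to 0.49. In a group of 2 sections the deviations mirror each other, so these values cannot decide whether the letters pair samples. With the letter as a replicate block, 36 h against 24 h had 0 calls (Ankrd1 -3.91, Cyr61 -1.46 and Ajuba -1.13, adjusted p = 0.0685, 0.0741 and 0.0531), 48 h against 24 h had 1 and 48 h against 36 h had 0. The planned change of the low-to-far contrast from 24 h to 48 h could not be run, since the 24 h sections held 5 and 13 low spots. With low spots taken below the 5th percentile, an alternative chosen after seeing the data, it was lower at 48 h for Ctgf (-0.69, adjusted p = 0.00597), Cyr61 (-0.59, adjusted p = 0.0267) and Ankrd1 (-1.64, adjusted p = 0.000246), against 11.8% of all genes called. With no TMM scaling Cyr61 was not called there (-0.46, adjusted p = 0.0984). The hepatocyte list without Cyp2e1 left 2 to 32 low spots per section at 48 h, too few for a fit of low against far spots. Depth limits Ankrd1 most, with 9 to 13 UMIs per uninjured section.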
